A study of Mus musculus with 12 samples.

Results

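The lysosomal hydrolases and membrane proteins described here are 40 genes out of 55536 in the count tables. They were chosen by name for their known role, through the GENCODE vM21 symbol of each gene ID, when earlier results of these data were known. The 40 genes comprise 6 lysosomal membrane proteins, 4 proteins that handle lipids, 10 peptidases, 10 glycosidases, 4 sulfatases, progranulin, 3 subunits of the proton pump and 2 transcription factors of the *Tfeb* family. All 40 passed the filter on low counts in every comparison.

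RNA from whole cerebellum and from cerebral cortex of 1-month-old mice was sequenced in 12 libraries, with 3 WT and 3 *Snx14*-KO mice for each tissue. *Snx14*-KO mice lack SNX14, a sorting nexin of the endoplasmic reticulum whose loss causes a childhood ataxia in humans, in every cell of the body. The mice were on a C57BL/6J background and carried a CRISPR-made frameshift deletion in both copies of *Snx14*. WT mice were the controls, and whether they were littermates is not given for these libraries in the sources used here. The labels use the same mouse numbers in both tissues, and a shared number was taken to mark the same animal. The labels call the cell type a mix and give no sex for the single libraries, so the counts are averages over all cells of a tissue block. In such bulk tissue, fewer cells of a type and less RNA per cell cannot be told apart.

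Lysosomes are acidic organelles in which soluble hydrolases take apart proteins, glycans, sulfated sugars and lipids delivered by endocytosis and autophagy. A proton pump of the vacuolar ATPase type keeps them acidic, membrane glycoproteins such as LAMP1 line them, and NPC1 and NPC2 pass free cholesterol out of them. The transcription factors TFEB and TFE3 bind a short palindromic E-box near the start of many lysosomal genes. In brain many lysosomal genes are used by all cells, and some of them at high levels by microglia.

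Because 2 of the 40 genes encode factors that bind this E-box, the promoters were searched for it. The 8-letter form TCACGTGA and its 6-letter core CACGTG read the same on both strands, and each 8-letter match holds a core match. In the RefSeq promoter sequences (GRCm38.p6, from 250 bases before to 50 bases after the start site), 36 of the 40 genes had an entry. TCACGTGA was present in 7 of these 36 genes (19.4%), against 1.12% of 27025 genes with a promoter of the same length. CACGTG was present in 16 of the 36 (44.4%), against 8.09% of the 27025. Among the other lysosomal lists, CACGTG was in 2 of 21 other hydrolases and activators (9.52%) and 2 of 16 other proton pump subunits (12.5%). It was in 4 of 25 other membrane proteins (16%), 4 of 12 sorting genes (33.3%) and 5 of 15 signalling genes (33.3%). TCACGTGA was in 2, 1, 3, 2 and 0 of these, in the same order. The stretches of the 7 genes with the 8-letter form are shown in the direction of the gene, together with that of *Lamp1*, which has 4 cores and no 8-letter match. Capitals mark the 6-letter core.
*Lamp1*, chr8:13159078-13159173, plus strand: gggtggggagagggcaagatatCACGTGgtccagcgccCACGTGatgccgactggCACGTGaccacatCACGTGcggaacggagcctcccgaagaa
*Mcoln1*, chr8:3500426-3500501, plus strand: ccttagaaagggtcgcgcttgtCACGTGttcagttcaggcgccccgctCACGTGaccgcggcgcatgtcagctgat
*Cln3*, chr7:126583330-126583407, minus strand: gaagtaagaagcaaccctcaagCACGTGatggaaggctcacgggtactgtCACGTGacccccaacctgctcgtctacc
*Ctsa*, chr2:164833739-164833805, plus strand: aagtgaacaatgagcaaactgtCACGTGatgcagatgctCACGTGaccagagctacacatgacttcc
*Ctsd*, chr7:142387898-142387947, minus strand: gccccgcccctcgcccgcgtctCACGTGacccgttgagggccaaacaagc
*Gla*, chrX:134601172-134601254, minus strand: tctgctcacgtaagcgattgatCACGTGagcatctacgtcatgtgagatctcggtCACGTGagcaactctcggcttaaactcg
*Atp6v0d1*, chr8:105566040-105566089, minus strand: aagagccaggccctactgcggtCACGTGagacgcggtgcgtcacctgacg
*Atp6v1a*, chr16:44139363-44139412, minus strand: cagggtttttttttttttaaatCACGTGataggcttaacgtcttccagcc

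The 4 cores of *Lamp1* lie between 58 and 12 bases before its start site. *Ctsa* and *Gla* each have a pair of 8-letter matches, which lie next to the start site in *Ctsa* and from 224 to 191 bases before it in *Gla*. A match of letters is a description of the sequence and not a measured binding site. *Npc1*, *Ctsb*, *Ctsh* and *Atp6v1h* had no entry in the promoter table.

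The counts on genes summed to between 16672589 and 19887427 per library. *Snx14* itself, the check of the genotype labels, was at 10.8 to 11.9 CPM (gene counts scaled to a common library size, TMM-normalized within a tissue) in *Snx14*-KO against 65.8 to 70.5 in WT cerebella. In cortex it was at 7.31 to 8.11 CPM against 51.1 to 56.9. The summed level of 9 granule cell genes was 2848 to 3955 CPM in cerebella and 158 to 183 CPM in cortices, and that of 10 forebrain neuron genes was 6408 to 7284 CPM in cortices and 690 to 813 CPM in cerebella. Of the 10 forebrain genes, 8 were lower and 2 (*Neurod2* and *Bhlhe22*) higher in WT cerebella than in WT cortices by edgeR. *Nrgn* was at 127 and 124 CPM in *Snx14*-KO cerebella 1 and 3 and at 2.09 to 9.63 CPM in the other 4 cerebella. *Camk2a* was also higher in these 2 libraries, at 214 and 195 against 140 to 149 CPM, while *Slc17a7* was lower, at 256 and 234 against 292 to 385 CPM, as was *Neurod2*, at 83.7 and 70.0 against 106 to 115 CPM. The granule cell genes were lowest in the same 2 libraries, at 2848 and 2983 against 3404 to 3955 CPM. The part of forebrain tissue in the values of the 40 genes was not tested. The summed level of 7 choroid plexus genes ranged from 84.0 to 7767 CPM among the WT cerebella.

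On TPM, a scale corrected for gene length on which every library has the same total, the 40 genes together took 0.373% ± 0.0241 (SD, n = 3) of all TPM in WT cerebella and 0.362% ± 0.0111 (SD, n = 3) in WT cortices. In WT cerebella the highest level was that of *Lamp1* (ENSMUSG00000031447.7), the main glycoprotein of the lysosomal membrane, at 689 ± 35.0 TPM (SD, n = 3). *Ctsd*, the major aspartic protease of lysosomes, followed at 513 ± 86.8 TPM and *Ctsb*, a cysteine protease, at 335 ± 15.0 TPM. The proton pump subunits *Atp6v0d1* and *Atp6v1a* stood at 306 ± 19.6 and 289 ± 15.3 TPM. The 6 genes with the highest levels held 61.3% of the summed TPM of the 40 in cerebellum. At the other end were *Ctsc*, a dipeptidyl peptidase that activates proteases of immune cells, at 5.55 ± 2.38 TPM, and *Cln3*, a membrane protein mutated in juvenile Batten disease, at 5.95 ± 0.952 TPM. The median of the 40 mean levels was 45.4 TPM in WT cerebella and 35.3 TPM in WT cortices.

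In WT cortices *Ctsd* came first at 458 ± 25.2 TPM, with *Lamp1* at 426 ± 20.8 and *Atp6v0d1* at 420 ± 16.3 TPM, and the libraries of these 3 genes overlapped. *Ids*, the sulfatase that starts the breakdown of dermatan and heparan sulfate, came next in cortex at 374 ± 25.6 TPM. The lowest level in cortex was that of *Tfeb*, at 3.82 ± 0.245 TPM. In the order of the 40 levels, 28 of 39 neighbouring pairs overlapped over their 3 libraries in WT cerebella and 27 of 39 in WT cortices, so most adjacent ranks do not differ beyond the spread. *Lamp1* and *Ctsd* were separate from each other and from the next gene in cerebellum.

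**Figure D1:**
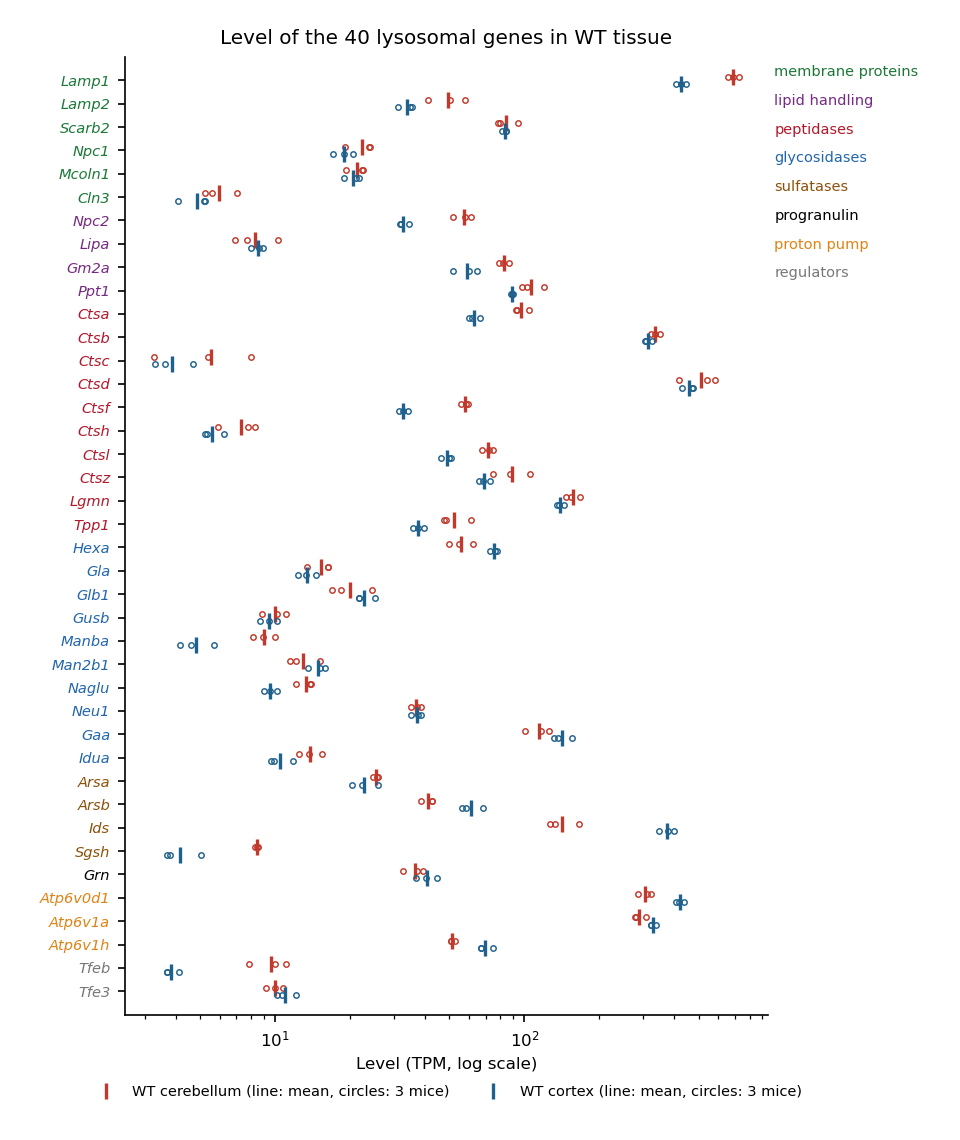
Level of each of the 40 genes in WT cerebellum (red) and WT cortex (blue), in TPM on a log axis, with the mean as a line and the 3 libraries of a tissue as circles. Gene names are coloured by role, and the levels run from below 10 TPM for *Ctsc*, *Cln3* and *Tfeb* to 689 TPM for *Lamp1* in cerebellum.

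The tissues of WT mice were compared to see in which one each lysosomal gene had the higher level. Of the 40 genes, 15 were higher and 8 lower in WT cerebella than in WT cortices by edgeR's quasi-likelihood test at an adjusted p under 0.05. That is 37.5% and 20% of them, beside 28.2% higher and 29.2% lower over all 18543 genes tested. With 1 library left out, the number of the 40 called ranged from 19 (without WT cortex 2) to 26 (without WT cerebellum 1). The shares of all genes called in the same fits were 51% and 55.4%. The groups of genes went different ways. Of the 10 peptidases, 5 were higher, 0 were lower and their median log2 fold change was 0.37, while all 3 proton pump subunits were lower. The median over the 40 genes was 0.12, beside 0.023 over all genes.

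*Tfeb* (ENSMUSG00000023990.18, chromosome 17 from 47737030 to 47792419), the factor that drives lysosomal genes when nutrients are short, had the largest rise. It was at 9.64 ± 1.67 TPM in WT cerebella and 3.82 ± 0.245 TPM in WT cortices (SD, n = 3), a log2 fold change of 1.27 (SE 0.149, adjusted p = 3.42e-05 by edgeR). Its relative *Tfe3* lay in the other direction, with a log2 fold change of -0.20 that did not pass in WT mice (adjusted p = 0.0791). *Sgsh*, the sulfamidase of heparan sulfate breakdown, was higher by 0.96 and *Manba*, the lysosomal beta-mannosidase, by 0.84. *Ctsf*, a cysteine protease, was higher by 0.76 and *Npc2*, the soluble cholesterol carrier, by 0.74. *Lamp1* was higher by 0.63 (SE 0.0709, adjusted p = 2.41e-05), and *Npc1*, the membrane partner of *Npc2*, had a log2 fold change of 0.18 (adjusted p = 0.118).

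*Ids* (ENSMUSG00000035847.15, chromosome X from 70343069 to 70365084) had the largest fall. It stood at 127, 133 and 166 TPM in the WT cerebella and at 399, 376 and 347 TPM in the WT cortices. The groups were far apart, with a log2 fold change of -1.46 (SE 0.0887, adjusted p = 2.04e-07). *Arsb*, the sulfatase that acts on dermatan and chondroitin sulfate, had a log2 fold change of -0.63, though 39.9% of its exon bases are also exons of antisense transcripts and the counting ignored the strand. The sulfatases thus moved both ways, with *Sgsh* higher and *Ids* and *Arsb* lower. *Hexa*, the alpha subunit of beta-hexosaminidase, was at -0.50 and *Gaa*, the acid alpha-glucosidase that clears glycogen, at -0.37. The proton pump subunits *Atp6v0d1*, *Atp6v1h* and *Atp6v1a* had log2 fold changes of -0.52, -0.50 and -0.24.

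The proton pump subunits outside the 40 genes went the same way in WT mice. Of 17 other vacuolar ATPase subunits tested, 13 were lower and 3 higher in cerebellum, with a median log2 fold change of -0.52. Over all genes tested in this comparison, 28.2% were higher and 29.2% lower, which is the background for each list below. *Atp6v1c1*, *Atp6v1b2* and *Atp6v0a1*, which are subunits of the catalytic and membrane sectors, had -0.71, -0.71 and -0.64. Of 30 other lysosomal hydrolases and activators, 12 were higher and 6 lower, with a median of 0.19. *Ctss*, a cysteine protease of microglia, was among the lower ones at -0.74. Among 27 other lysosomal membrane proteins, 9 were higher and 7 lower, with a median of 0.14, and *Lamp5*, a LAMP of forebrain neurons, had the largest difference at -6.53. Of 15 genes that sort lysosomal enzymes, 3 were higher and 7 lower, and of 15 genes of lysosomal signalling, 7 were higher and 2 lower, with medians of -0.14 and 0.15. All 14 microglia marker genes were lower in WT cerebella, with a median of -1.36. These markers summed to 190 to 249 CPM in WT cerebella and 464 to 524 CPM in WT cortices, none was at 0, and their part in the differences of *Hexa* and *Ctss* was not tested.

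In *Snx14*-KO mice the same comparison gave 13 of the 40 genes higher and 6 lower in cerebellum (adjusted p under 0.05, edgeR), against 25.5% higher and 26.6% lower over 18542 genes. The WT and *Snx14*-KO comparisons share no library. 18 of the 40 genes were called in both and in the same direction, which is 78.3% of the 23 calls in WT and 94.7% of the 19 calls in *Snx14*-KO mice. Over all genes the same shares were 80.5% and 88.6%. *Tfeb* was higher by 1.12 (SE 0.157, adjusted p = 0.000204) and *Ids* lower, at -1.38 (SE 0.0727, adjusted p = 2.10e-07). The 3 proton pump subunits were lower again, at -0.58, -0.52 and -0.38. *Manba*, *Npc2*, *Ctsf* and *Lamp1* had log2 fold changes of 0.89, 0.74, 0.71 and 0.69, and *Arsb* one of -0.67. *Tfe3*, which did not pass in WT mice, was called lower in *Snx14*-KO mice, at -0.29, opposite to *Tfeb*.

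A few genes had unlike values in WT and *Snx14*-KO mice. *Hexa* had a log2 fold change of -0.50 (adjusted p = 0.00102) in WT and -0.01 (adjusted p = 0.974) in *Snx14*-KO mice, where it was -0.29 without *Snx14*-KO cerebellum 3. *Gaa* had -0.37 in WT and -0.19 (adjusted p = 0.139) in *Snx14*-KO mice, where it was -0.081 without *Snx14*-KO cerebellum 2. *Sgsh* was higher by 0.96 in WT and by 0.41 in *Snx14*-KO mice (adjusted p = 0.0368), and with the mouse number as a block the adjusted p of the latter was 0.056. Without *Snx14*-KO cerebellum 3 it was 0.0986. The interaction of genotype and tissue, which tests these differences, passed for none of the 3.

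**Figure D2:**
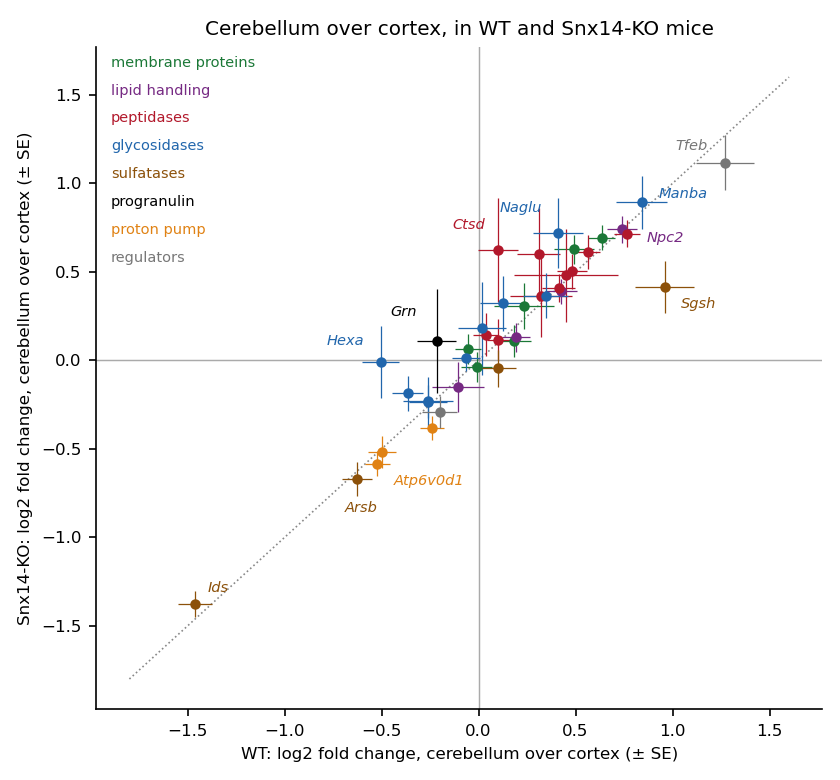
log2 fold change of cerebellum over cortex for each of the 40 genes, in WT (horizontal axis) and *Snx14*-KO mice (vertical axis), with SE bars, colours for the role of the gene and a dotted line of equality. Most genes lie along the line, from *Ids* at -1.46 and -1.38 to *Tfeb* at 1.27 and 1.12, while *Hexa* and *Sgsh* lie off it.

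Loss of SNX14 enlarges lysosomes in human cells, and the study reports larger lysosomes in Purkinje cells of *Snx14*-KO mice, a small part of the cerebellum. *Snx14*-KO and WT cerebella were compared to see whether it is accompanied by a change in lysosomal transcripts of the whole tissue. None of the 40 genes passed an adjusted p under 0.05 by edgeR's quasi-likelihood test, and DESeq2 called 0 of them as well. Over all 18201 genes, edgeR called 0.00549%, a count of 1, which was *Snx14*, and DESeq2 called 1.13%. Without adjustment, 7 of the 40 genes (17.5%) were higher at p under 0.05 and 0 were lower, beside 5.78% of all genes higher and 2.37% lower. The log2 fold change was above 0 for 30 of the 40, with a median of 0.11, beside a median of -0.00062 over all genes. All 3 *Snx14*-KO libraries lay above all 3 WT libraries for 6 of the 40 genes (15%), beside 6.99% of all genes, and below for 1 gene (2.5%), beside 5.25%.

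All 10 peptidases and 9 of the 10 glycosidases had values above 0, with medians of 0.25 and 0.23. Without *Snx14*-KO cerebellum 3 these medians were 0.09 and 0.14. Of the membrane proteins 5 of 6 were above 0 with a median of 0.06, while the other groups had medians near 0, at 0.02 for the lipid-handling proteins, -0.0083 for the proton pump and -0.00035 for the sulfatases. Both transcription factors lay close to 0, *Tfeb* at -0.06 (95% CI -0.40 to 0.28) and *Tfe3* at -0.02 (95% CI -0.23 to 0.20).

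*Grn* (ENSMUSG00000034708.11, chromosome 11 from 102430315 to 102437048) encodes progranulin, a secreted protein that is cleaved to granulins in lysosomes and whose loss causes a lysosomal storage disease. It was at 40.8, 44.2 and 34.9 CPM in the WT cerebella and at 41.0, 50.9 and 104 CPM in the *Snx14*-KO cerebella. The third *Snx14*-KO library was far above the rest, while the first lay within the WT range. The log2 fold change was 0.71 (SE 0.293, adjusted p = 0.569 by edgeR). Without *Snx14*-KO replicate 3 it was 0.20. When all 31465 genes with a count were tested, *Grn* was called (adjusted p = 0.0338), together with 1.24% of those genes.

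*Ctsd* (ENSMUSG00000007891.16, chromosome 7 from 142375911 to 142388038) showed the same single library more sharply. It was at 310, 410 and 421 CPM in WT and at 381, 429 and 982 CPM in *Snx14*-KO cerebella, so only the third *Snx14*-KO library stood far from the WT range. The log2 fold change was 0.65 (SE 0.315, adjusted p = 0.669) with that library and 0.09 without it. Of the exon bases of *Ctsd*, 34.4% are shared with *Gm49369* on the same strand, and read pairs there counted for both genes. *Hexa* was at 31.4, 40.1 and 33.5 CPM in WT and 37.3, 43.9 and 68.2 CPM in *Snx14*-KO cerebella. The difference was 0.51 on the log2 scale (SE 0.201, adjusted p = 0.533), and 0.21 without *Snx14*-KO replicate 3.

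*Ctsl*, a cysteine protease with broad activity, had the lowest p of the 40 in cerebellum. Of its exon bases, 26.8% are also exons of *Gm47123* or *Gm49230*, and of those of *Ctsa* 17.4% are exons of the antisense genes *Pltp* or *Neurl2*, so read pairs there counted for more than 1 gene. *Ctsl* was at 138, 157 and 144 CPM in WT and at 159, 166 and 204 CPM in *Snx14*-KO cerebella. The groups did not overlap, and the log2 fold change was 0.27 (SE 0.101, adjusted p = 0.496). *Ctsa*, the carboxypeptidase that protects neuraminidase and beta-galactosidase, was at 138, 142 and 151 CPM in WT and 152, 162 and 191 CPM in *Snx14*-KO cerebella, also without overlap, with a log2 fold change of 0.23 (adjusted p = 0.542). *Naglu*, a glucosaminidase of heparan sulfate breakdown, had 0.39 (adjusted p = 0.545) and *Ctsh*, an aminopeptidase, 0.55 (adjusted p = 0.573), both with overlapping groups. The seventh gene with an unadjusted p under 0.05 was *Man2b1*, the lysosomal alpha-mannosidase, at 0.29 (adjusted p = 0.610), which is named after its values were seen. Without *Snx14*-KO cerebellum 3 the log2 fold changes of *Ctsl*, *Ctsa*, *Naglu*, *Ctsh* and *Man2b1* were 0.15, 0.12, 0.25, 0.24 and 0.15. The gene for which the *Snx14*-KO cerebella lay below the WT cerebella was *Sgsh*, at 9.97, 10.4 and 11 CPM against 11.6, 12.2 and 11.5 CPM, a log2 fold change of -0.17 (adjusted p = 0.819).

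The genes of cholesterol export and of the lysosomal membrane did not separate the genotypes in cerebellum. *Npc1*, the membrane cholesterol transporter, was at 85.8, 69.7 and 83.2 CPM in WT and 70.1, 80.9 and 78.1 CPM in *Snx14*-KO cerebella, with a log2 difference of -0.06 (95% CI -0.27 to 0.15) that ranged from -0.15 (without WT cerebellum 2) to -0.0041 (without WT cerebellum 1). *Npc2* was at 89.3, 102 and 103 CPM in WT and 102, 109 and 120 CPM in *Snx14*-KO cerebella, with a log2 difference of 0.17 (95% CI -0.025 to 0.36, adjusted p = 0.697), and 0.10 without *Snx14*-KO cerebellum 3 and 0.11 without WT cerebellum 1. *Lipa*, the acid lipase that frees cholesterol from its esters, had -0.10 (95% CI -0.45 to 0.24). *Lamp1* had 0.09 (95% CI -0.086 to 0.26), from 0.052 (without *Snx14*-KO cerebellum 2) to 0.14 (without WT cerebellum 2), and *Lamp2*, its relative needed for autophagosome clearance, 0.11 (95% CI -0.14 to 0.36). For all 5 genes the groups overlapped and the interval of the difference included 0.

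In cerebral cortex, none of the 40 genes passed an adjusted p under 0.05 by edgeR or by DESeq2. Over 18255 genes, edgeR called 0.00548%, which again was *Snx14* alone, and DESeq2 called 0.0876%. Without adjustment, 5 of the 40 genes (12.5%) were higher at p under 0.05, beside 2.24% of all genes, and 1 (2.5%) was lower, beside 2.26%. The log2 fold change was above 0 for 32 of the 40, with a median of 0.08, beside 8.2e-05 over all genes. The *Snx14*-KO libraries lay above all WT libraries for 9 genes (22.5%), beside 4.51% of all genes, and below for 1 gene (2.5%), beside 4.74%.

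By role, 10 of 10 peptidases were above 0 with a median of 0.16, as were all 3 proton pump subunits (median 0.04), both transcription factors (0.07) and *Grn*. Of the sulfatases 3 of 4 were above 0 and of the lipid-handling proteins 2 of 4, with medians of 0.17 and 0.06. Of the glycosidases, 8 of 10 were above 0 with a median of 0.05, and of the membrane proteins 3 of 6 with a median of -0.01. *Ctsl* was at 88.4, 98.6 and 101 CPM in WT and 105, 118 and 116 CPM in *Snx14*-KO cortices. All *Snx14*-KO libraries were above all WT libraries, with a log2 fold change of 0.24 (SE 0.0771, adjusted p = 0.996). *Ctsh* was at 8.26, 7.22 and 7.37 CPM in WT and 9.12, 13.5 and 9.52 CPM in *Snx14*-KO cortices, again without overlap, with a log2 fold change of 0.50 (SE 0.169, adjusted p = 0.996) that was 0.29 without *Snx14*-KO cortex 2.

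*Grn* was at 45.5, 43.0 and 39.1 CPM in WT and at 47.5, 69.8 and 47.0 CPM in *Snx14*-KO cortices. All *Snx14*-KO libraries were above the WT libraries, the second by far the most and the other pair by little. The log2 fold change was 0.37 (SE 0.136, adjusted p = 0.996), and 0.15 without *Snx14*-KO replicate 2. With all 31561 genes with a count tested, *Grn* was called (adjusted p = 0.00894), together with 0.691% of those genes. In that fit the spread of each gene was taken almost wholly from the trend over all genes, with 1.26e+05 degrees of freedom for the test in place of 11.9 (29.8 to 31.8 in place of 9.15 in cerebellum). *Ctsa* had a log2 fold change of 0.17 and *Man2b1* one of 0.25, both without overlap between the groups. Without *Snx14*-KO cortex 2 that of *Man2b1* was 0.10.

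*Ids* was the member with an unadjusted p under 0.05 that was lower in cortex. It was at 597, 586 and 543 CPM in WT and 508, 516 and 536 CPM in *Snx14*-KO cortices. The groups did not overlap, though by a small margin, and the log2 fold change was -0.15 (SE 0.0621, adjusted p = 0.996). *Npc1* had a log2 fold change of 0.00017 (95% CI -0.19 to 0.19), *Npc2* of 0.16 (95% CI -0.0018 to 0.32, with all *Snx14*-KO above all WT libraries) and *Lipa* of -0.07 (95% CI -0.35 to 0.21). *Lamp1* had 0.02 (95% CI -0.12 to 0.16), *Lamp2* -0.04 (95% CI -0.21 to 0.14) and *Ctsd* 0.11 (95% CI -0.065 to 0.29), which was 0.018 without *Snx14*-KO cortex 2. *Tfeb* was at 0.08 (95% CI -0.27 to 0.43) and *Tfe3* at 0.06 (95% CI -0.12 to 0.25). With 1 library left out *Tfeb* ranged from 0.00045 (without *Snx14*-KO cortex 1) to 0.20 (without *Snx14*-KO cortex 2), and *Tfe3* from 0.017 (without WT cortex 2) to 0.12 (without WT cortex 1).

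**Figure D3:**
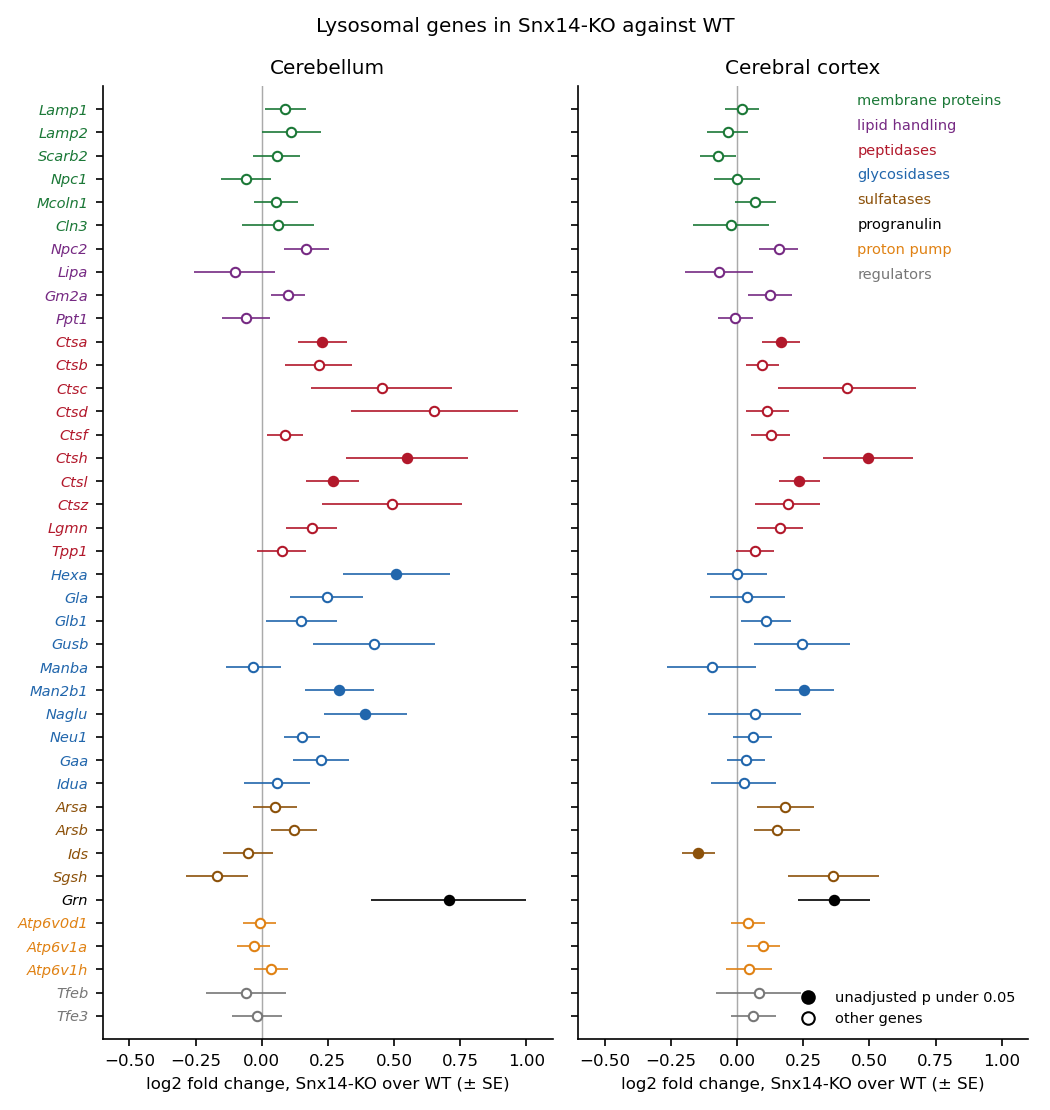
log2 fold change of *Snx14*-KO over WT for each of the 40 genes in cerebellum (left) and cerebral cortex (right), with SE bars, from edgeR's fit with 3 libraries in each group. Filled circles have an unadjusted p under 0.05, 7 in cerebellum and 6 in cortex, and no gene passed after adjustment. The peptidases (dark red) lie above 0 in both tissues.

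The interaction of genotype and tissue asks whether the *Snx14*-KO effect differs between cerebellum and cortex. None of the 40 genes passed an adjusted p under 0.05 by edgeR or by DESeq2, beside 0% and 0.206% of 19380 genes. Without adjustment 1 gene (2.5%) had a p under 0.05, beside 5.68% of all genes. That gene was *Sgsh*, which was lower in *Snx14*-KO cerebella (-0.17) and was at 6.54, 4.96 and 5.15 CPM in WT and 7.45, 7.81 and 6.17 CPM in *Snx14*-KO cortices, where its log2 fold change was 0.36. The difference of the effects was -0.55 (SE 0.200, adjusted p = 0.695), and 21.6% of the exon bases of *Sgsh* are also exons of the antisense gene *Card14*. *Hexa* had a difference of 0.49 (adjusted p = 0.955) and *Ctsd* of 0.52 (adjusted p = 1.00), and without *Snx14*-KO cerebellum 3 these were 0.21 and -0.03. *Atp6v1a* had -0.14, *Gaa* 0.18 and *Naglu* 0.31, with adjusted p of 0.976, 1.00 and 1.00. The value of *Naglu* ranged from 0.14 (without *Snx14*-KO cortex 3) to 0.46 (without *Snx14*-KO cortex 2) and was 0.18 without *Snx14*-KO cerebellum 3. That of *Gaa* was 0.10 without WT cerebellum 2, 0.11 without *Snx14*-KO cerebellum 1 and 0.28 without *Snx14*-KO cerebellum 2. With all 34466 genes with a count tested, *Hexa* and *Ctsd* were called, together with 1.21% of those genes. That fit had 2.76e+05 degrees of freedom for the test, in place of 10.1 to 14.1. It took the spread of each gene almost wholly from the trend over all genes.

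**Figure D4:**
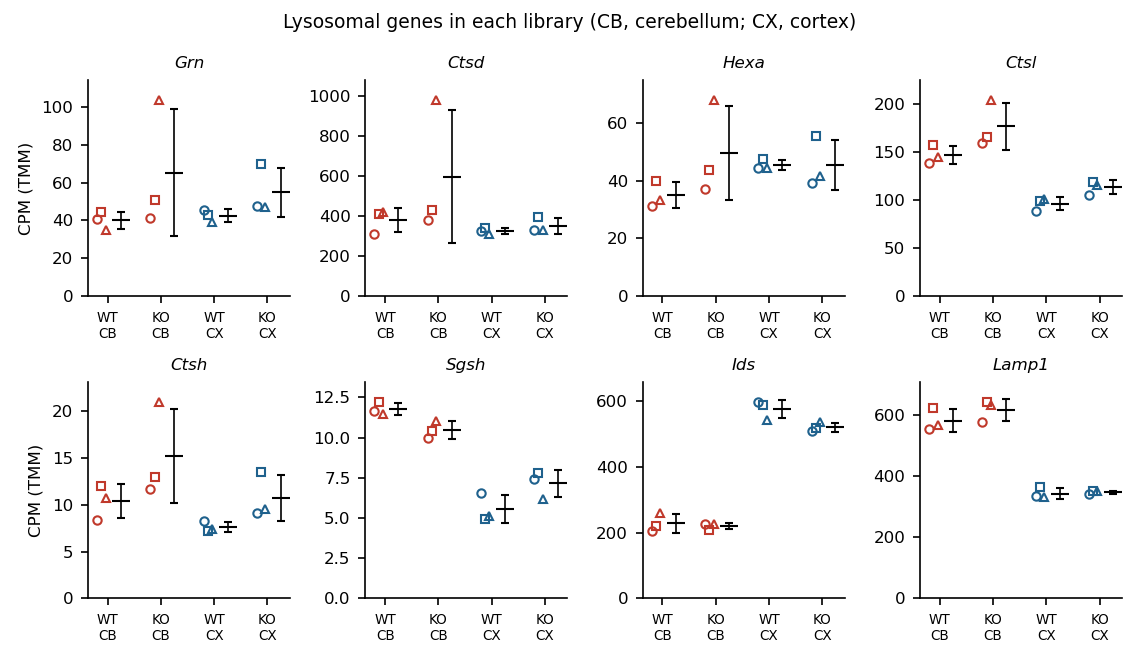
CPM (TMM-normalized within a tissue) of 8 of the 40 genes in each library, with circles, squares and triangles for mouse 1, 2 and 3 of a group, red for cerebellum (CB), blue for cortex (CX), and the mean ± SD beside them. *Grn* and *Ctsd* reach 104 and 982 CPM in *Snx14*-KO cerebellum 3, *Sgsh* is lower in *Snx14*-KO than in WT cerebella, and the cortices hold more *Ids* and less *Lamp1* than the cerebella.

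Single libraries held many of the highest and lowest values. WT cerebellum 1 was the lowest of the 6 cerebella for 19 of the 40 genes. Without it 32 of the 40 genes were above 0 with a median of 0.09. Of the 40, 1 then had an unadjusted p under 0.05, beside 7.61% of all genes. *Snx14*-KO cerebellum 3 was the highest of the 6 cerebella for 21 of the 40 genes, and the 40 genes took 0.534% of its TPM, against 0.351% to 0.399% in the other 5. Against the mean of the other 5 cerebella it held 2.52 times as much *Ctsd*, 2.45 times as much *Grn*, 2.13 times as much *Ctsz*, a carboxypeptidase, 1.90 times as much *Gusb*, the beta-glucuronidase, and 1.83 times as much *Hexa*. *Atp6v1a*, *Tfeb*, *Tfe3* and *Npc1* were at 0.978, 0.970, 0.966 and 1.00 times. By role, the ratios ran from 1.02 (*Ctsf*) to 2.52 among peptidases, from 1.00 (*Manba*) to 1.90 among glycosidases, from 0.928 to 1.16 among membrane proteins and from 0.978 to 1.04 among proton pump subunits, so the peptidases and glycosidases were uneven in this library.

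The microglia markers stood high in the same library. The 14 markers summed to 605 CPM in *Snx14*-KO cerebellum 3 and to between 190 and 266 CPM in the other 5 cerebella, each of the 14 was higher there than the mean of the other 5, by 1.36 to 5.22 times, and none was at 0. *Cd68*, a lysosomal membrane glycoprotein of macrophages and one of the other lysosomal genes, was at 29.6 CPM there and between 2.26 and 6.62 CPM in the other 5. The 5 border macrophage markers summed to 13.6 to 20.7 CPM in *Snx14*-KO and 5.33 to 11.1 CPM in WT cerebella, and the 10 meningeal fibroblast markers to 463 to 485 against 166 to 349 CPM, with none at 0. The 10 markers of astrocytes and Bergmann glia summed to 8762 to 10033 CPM in *Snx14*-KO and 8077 to 8748 CPM in WT cerebella, and *Gfap* among them was at 969 CPM in *Snx14*-KO cerebellum 3 against 284 to 465 CPM in the other 5. Of the 9 granule cell markers, 4 were lower in *Snx14*-KO cerebella at an unadjusted p under 0.05, beside 2.37% of all genes. At that threshold 9 of 14 microglia, 4 of 5 border macrophage, 8 of 10 meningeal fibroblast and 5 of 10 astrocyte markers were higher, beside 5.78%. All 7 choroid plexus and all 5 blood markers were below 0, with medians of -0.71 and -0.59 and 0 at that threshold. The 10 Purkinje cell markers summed to 9417 CPM in *Snx14*-KO cerebellum 3 and to 11521 to 13154 CPM in the other 5, and 9 of them had a log2 fold change below 0 between genotypes. All 10 oligodendrocyte markers were below 0 in *Snx14*-KO cerebella, with a median of -0.16 and 0 at an unadjusted p under 0.05. The part of these cells in the values of the 40 genes was not tested. Without *Snx14*-KO cerebellum 3, 28 of the 40 genes were above 0 with a median of 0.07, and 0 had an unadjusted p under 0.05, beside 4.91% of all genes. The microglia markers then had a median of 0.25 in place of 0.81. The cortex with the same mouse number had 5 of the 40 genes highest, and the mean of the 40 genes at 0.0046 on the log2 scale above the mean of the cortices. That the number marks the same animal is not stated by the labels. The deviations of *Snx14*-KO mice 2 and 3 correlated higher with another number (0.0422 and 0.154) than with their own (0.0174 and 0.104).

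In cortex, the library with the most high values was *Snx14*-KO cortex 2, which was the highest of 6 for 17 of the 40 genes. It held 2.03 times as much *Ctsc*, 1.63 times as much *Ctsh*, 1.57 times as much *Grn* and 1.57 times as much *Gusb* as the mean of the other 5 cortices. The meningeal fibroblast markers summed to 340 CPM there and to between 84.8 and 131 CPM in the other 5, the border macrophage markers to 28.7 CPM against 6.44 to 10.9, and the oligodendrocyte markers to 5483 CPM against 7165 to 8128. Over the groups, all 10 oligodendrocyte markers were below 0 in *Snx14*-KO cortices, with a median log2 fold change of -0.30. At an unadjusted p under 0.05, 8 of them were lower, beside 2.26% of all genes. The microglia markers summed to 573 CPM in *Snx14*-KO cortex 2 against 464 to 524 CPM in the other 5. They ran from 0.715 times the mean of the other 5 for *P2ry12* to 1.38 times for *C1qc*. *Gfap* was at 1000.2 CPM there and at 140 to 249 CPM in the other 5. None of these markers was at 0, and their part in the values was not tested. Without that library, 29 of the 40 genes were above 0 with a median of 0.07, and 2 had an unadjusted p under 0.05, beside 4.45% of all genes. The peptidases then had a median of 0.06 in place of 0.16. The cerebellum with this mouse number was the highest for 1 of the 40 genes.

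**Figure D5:**
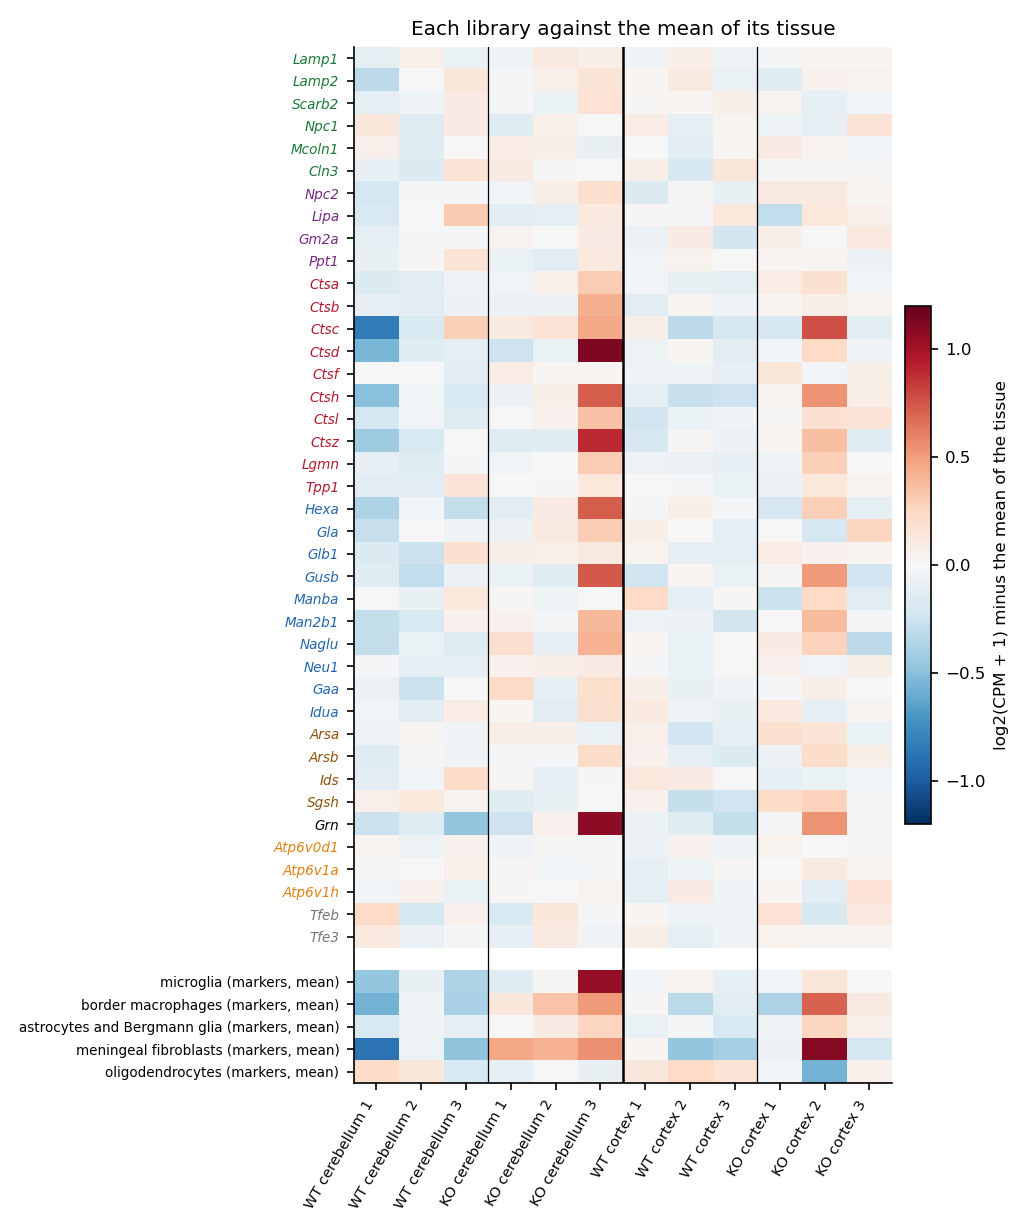
Deviation of each library from the mean of the 6 libraries of its tissue, in log2(CPM + 1), for the 40 genes and, below them, the mean over 5 lists of marker genes. Red is higher and blue lower. The columns of *Snx14*-KO cerebellum 3 and *Snx14*-KO cortex 2 are red for many peptidases and glycosidases, for *Grn* and for border macrophage markers. The microglia row is at 1.05 in *Snx14*-KO cerebellum 3 and at 0.15 in *Snx14*-KO cortex 2. In the latter, meningeal fibroblasts are at 1.11 and oligodendrocytes at -0.57.

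The other lysosomal genes gave no call between genotypes by edgeR in either tissue. Of 30 other hydrolases and activators tested in cerebellum, 24 were above 0 with a median log2 fold change of 0.07. Of the 30, 4 were higher at an unadjusted p under 0.05, beside 5.78% of all genes, led by *Aga* (0.36), *Ctsk* (0.51) and *Scpep1* (0.41). Of 27 other membrane proteins, 15 were above 0 with a median of 0.02, led by *Cd68* (2.20), *Laptm5* (1.16) and *Laptm4a* (0.14), the first pair being genes of macrophages, at 0.99 and 0.39 without *Snx14*-KO cerebellum 3. The 18 other pump subunits had a median of 0.06, the 15 sorting genes of 0.0077 and the 15 signalling genes of -0.04. Among the sorting genes *Igf2r*, the receptor that carries hydrolases to lysosomes by their mannose-6-phosphate tag, was at -0.24 (unadjusted p = 0.0394), and at -0.14 without WT cerebellum 3. In cortex the medians of the 5 lists, in the same order, were 0.07, 0.02, 0.03, -0.03 and 0.04, and *Scpep1* (0.36) and *Cd63* (0.25) were among the genes with an unadjusted p under 0.05, with values of 0.17 and 0.13 without *Snx14*-KO cortex 2.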

How the data were processed

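The authors deposited raw counts, 1 table per library, made from adapter-trimmed read pairs aligned to GRCm38 with STAR and counted over GENCODE M21 genes with featureCounts (Subread 2.0.1). Per the file headers, a read pair was counted for every gene it overlapped, strand was ignored and multi-mapping reads were left out. Of 81881 features, 55536 genes were used and 55450 of them were paired with a symbol. The 26248 numbered and 97 spike-in features took at most 0.0632% of the counts and were left out. All sample columns were used. Libraries held 16672589 to 19887427 gene counts, no 2 were identical, and replicates differed by more than sampling noise (chi-square per gene of at least 6.42).

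Genes that passed filterByExpr were tested with edgeR 4.0.16 (R 4.3.3), using TMM normalization and the quasi-likelihood test, with Benjamini-Hochberg adjustment over all genes tested. A gene was called at an adjusted p under 0.05. DESeq2 1.42.0, RLE normalization, no filter, a fit of all 12 libraries, the replicate number as a block and leaving out each library were the alternatives. CPM were TMM-normalized within a tissue, and TPM were computed from counts and the exon length in the tables, and TPM alone served to compare levels between genes. SE are those implied by the quasi-likelihood F statistic, and intervals cover 95%. The scripts were tested on simulated data.

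The members, the other gene lists and the tests were chosen with earlier results of these data known. Genes named between genotypes are *Lamp1*, *Lamp2*, *Npc1*, *Npc2*, *Lipa*, *Ctsd*, *Grn*, *Tfeb*, *Tfe3* and the 6 members with the smallest p; between tissues, the 6 called members with the largest rise and the 6 with the largest fall in WT; of other lysosomal lists, at most 3 genes with the smallest p, of which some are not reported here. Any other gene was singled out with its values in view. The labels use the same mouse numbers in both tissues but do not state that a shared number is the same animal. The numbers were taken to pair the tissues. Deviations from the group means under the same number correlated at 0.112, 0.159 and 0.0738 in WT and 0.339, 0.0174 and 0.104 in *Snx14*-KO mice over 19380 genes. In *Snx14*-KO mice 2 and 3 another number correlated higher, at 0.0422 and 0.154. Whether each mouse came from a separate litter is not given in the sources used here.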

Additional observations from a re-analysis of the deposited data

How the results depend on the processing

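No lysosomal gene of the 40 was called between genotypes, or for the difference between tissues, under DESeq2, RLE normalization, all 12 libraries in 1 fit where that was run, the replicate block or any library left out. With all genes with a count tested, 1 was called in cerebellum, 1 in cortex and 2 for the difference, and 14 (7.35% of all genes) and 5 (5.66% of all genes) had an unadjusted p under 0.05 in cerebellum and for the difference. With all 12 libraries in the fit, 3 had one in cortex (4.1% of all genes). Leaving out 1 library moved that number between 0 (without *Snx14*-KO cerebellum 3) and 11 (without *Snx14*-KO cerebellum 2) in cerebellum. It moved between 2 (without *Snx14*-KO cortex 2) and 11 (without *Snx14*-KO cortex 3) in cortex, and between 1 and 3 for the difference, while the share of all genes ranged from 4.91% to 10.7%, from 3.43% to 6.33% and from 4.21% to 7.59%. The median of the difference ranged from -0.063 (without *Snx14*-KO cerebellum 3) to 0.073, and that of *Snx14*-KO cerebellum over cortex from 0.068 (without *Snx14*-KO cerebellum 3) to 0.30. The cause was not tested.

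Of the genes named by rule, the direction of these turned with 1 library left out. In cerebellum *Lamp2* ranged from -0.0076 to 0.20, *Lipa* from -0.22 to 0.044, *Tfeb* from -0.18 to 0.057 and *Tfe3* from -0.086 to 0.040. In cortex *Lamp1* ranged from -0.0071 to 0.064, *Lamp2* from -0.081 to 0.024, *Npc1* from -0.083 to 0.049 and *Lipa* from -0.16 to 0.051. The difference between tissues of *Ctsd* ranged from -0.030 to 0.75, and *Hexa* in *Snx14*-KO cerebellum over cortex from -0.29 to 0.16. Of the other lysosomal genes with a larger value, the differences of *Grn* (0.32) and *Ctsz* (0.29) were -0.17 and -0.15 without *Snx14*-KO cerebellum 3, and in cortex *Ctsc* (0.42) and *Gusb* (0.25) were at -0.023 and -0.011 without *Snx14*-KO cortex 2. With all genes tested *Npc1* in cortex was at -0.0021.

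With the replicate number as a block, 11 lysosomal genes had an unadjusted p under 0.05 in cerebellum (7.79% of all genes), and *Npc1* in cortex was at -0.0011. WT and *Snx14*-KO mice share only a number, with correlations of deviations from -0.0933 to 0.0799. Between tissues the block took *Sgsh* in *Snx14*-KO mice past the threshold (adjusted p = 0.056), and 24 and 18 genes were called in WT and *Snx14*-KO mice (57.2% and 51.3% of all genes). With 3 libraries a group, these counts cannot show differences smaller than the intervals given.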
